A study of Mus musculus with 2 samples.

Results

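The genes described are 10 microtubule regulators of the developing mouse hindbrain, namely the structural microtubule-associated proteins (MAPs) Mapt, Map2, Map4, Map1a, Map1b and Map6, the doublecortin genes Dcx and Dclk1, and the stathmins Stmn2 and Stmn4. They were taken by name, through Ensembl identifiers with the version removed, and all 10 stood in both gene tables, which held 43346 genes. Every annotated transcript of these genes in the transcript tables was taken with them, 72 in all. The study measured total RNA of hindbrain, the brain region that forms medulla, pons and cerebellum, from wild-type B6NCrl embryos at embryonic day 15.5, with no allele or treatment in the labels. There was 1 group with 2 biological replicates, each a pool of male and female embryos, 78 embryos for replicate 1 and 62 for replicate 2. Each library was made from 10 ng of RNA with spike-ins of synthetic RNA, and the labels give both pools the same donor entry. No test between conditions was therefore possible, and values describe the spread between 2 pools.

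Microtubules are polar polymers of tubulin that fill axons and dendrites and carry the traffic of a neuron. Structural MAPs bind along the polymer and stabilize, space or bundle it, doublecortins bind the lattice in migrating and growing neurons, and stathmins bind free tubulin dimers and favour disassembly. Tau, MAP2 and MAP4 form 1 family that binds microtubules through short repeats near the carboxyl end, and alternative splicing sets the number of repeats and the length of the amino-terminal projection domain. In the embryonic brain these genes are known for their part in neuronal migration, axon growth and the setting up of dendrites.

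Deposited gene counts summed to 40020322 in replicate 1 and 43263959 in replicate 2, and the 2 libraries were not copies of each other (their gene counts gave a chi-square 8.71 times its degrees of freedom). Of 7 hindbrain position markers 6, all but En2, were detected, that is at 1 TPM or more in both libraries, where TPM is a relative abundance corrected for transcript length. All 6 neuron markers were detected, and their summed level was 2056 TPM in replicate 1 and 2167 in replicate 2. The 6 markers of progenitors and radial glia were also all detected and summed to 2377 and 2371 TPM. Most of each sum was Fabp7, at 1746 TPM in replicate 1 and 1815 in replicate 2. On scaled counts 4 of the 6 were lower in replicate 2 and 2 higher, and Mki67 was more than 1.5-fold lower. Of 6 forebrain position markers Neurod6 alone was detected, and Emx1, Dlx1 and Dlx2 were more than 1.5-fold higher in replicate 2. Emx1 stood at 0.03 TPM in replicate 1 and 1.52 in replicate 2, and Dlx1 at 0.3 and 5.52 TPM. Summed markers of blood stood at 6316 and 4939 TPM, of meninges at 323 and 267, of choroid plexus at 891 and 1225, of vessels at 107 and 103, of oligodendrocyte lineage at 168 and 176 and of astrocytes at 316 and 335 TPM. In whole tissue, fewer cells of a type and less RNA per cell cannot be told apart.

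All 10 genes were detected, against 63.1% of the 21461 nuclear protein-coding genes. Their median level was 249.6 TPM in replicate 1 and 255 TPM in replicate 2, and the median of all nuclear coding genes was 5.67 and 5.70. In both libraries 6 of the 10 were among the highest 5% of coding genes and 9 among the highest 10%. Together they summed to 3656 TPM in replicate 1 and 3883 in replicate 2, and they took 1.02% and 1.05% of gene counts. Stmn2 was the highest of the 10 and Map1a the lowest.

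In order of mean TPM the genes ran Stmn2, Mapt, Map1b, Stmn4, Map2, Dcx, Dclk1, Map4, Map6 and Map1a. For 7 neighbouring pairs in that order both libraries of the higher gene exceeded both of the lower. The exceptions were Dclk1 with Map4 and Map4 with Map6, whose libraries overlapped. Mean ± SD over 2 libraries (n = 2 throughout) ran from 984 ± 8.76 TPM for Stmn2 to 30.6 ± 8.29 TPM for Map1a, whose SD was the largest relative to its mean.

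**Figure D1:**
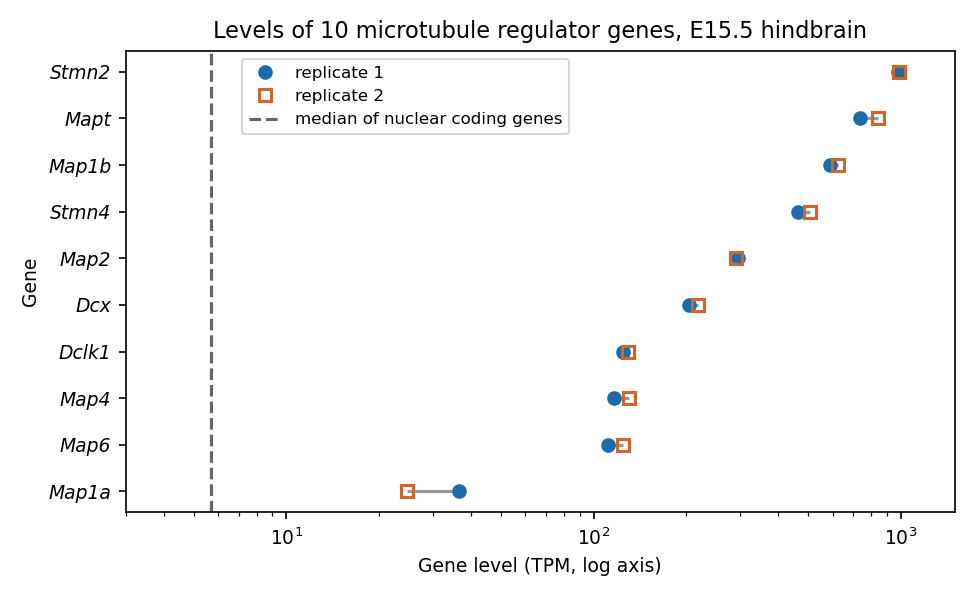
Gene level in TPM on a log axis for each of the 10 genes, with replicate 1 as filled circles and replicate 2 as open squares. The dashed line is the median of nuclear coding genes in TPM, 5.69 as the mean of both libraries, and all 20 points lie to its right.

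Mapt encodes tau, the axonal MAP, and lies at chr11:104231390-104332090 on the plus strand of GRCm38. It stood at 737 TPM in replicate 1 and 842 in replicate 2, ranks 101 and 79 among nuclear coding genes. Map2, which encodes the MAP of dendrites, lies at chr1:66175273-66442583 on the plus strand and stood at 294 and 291 TPM. Map4, the member of this family found in many tissues, lies at chr9:109931460-110083955 on the plus strand and stood at 116 and 130.2 TPM. Mapt was thus 2.70-fold above Map2 in mean TPM, and Map2 2.38-fold above Map4.

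In Map2 and Map4 an exon of 93 coding nt adds a further repeat to the microtubule-binding region. Its sequence is shown because most complete coding transcripts of Map2 lack it, while in Map4 every complete coding transcript that reaches the repeat region holds it. Read from GENCODE M21 transcripts on GRCm38, 5′ to 3′, with capitals at the bases identical in both genes, the exons at chr1:66431527-66431619 and chr9:110072613-110072705, both on the plus strand, are:
Map2: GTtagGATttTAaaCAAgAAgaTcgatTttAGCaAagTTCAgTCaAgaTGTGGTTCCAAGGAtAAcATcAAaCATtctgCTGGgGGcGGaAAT
Map4: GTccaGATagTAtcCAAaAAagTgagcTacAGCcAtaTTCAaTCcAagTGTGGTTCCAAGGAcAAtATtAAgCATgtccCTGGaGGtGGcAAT
Of the 93 positions 59, or 63.4%, were identical, and the next exons were of 82 and 113 coding nt in each gene.

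In Map2, 2 of 7 complete coding transcripts hold it, and they took 3.10% of the TPM of complete coding transcripts in replicate 1 and 1.91% in replicate 2. Nearly all complete coding Map2 RNA was therefore assigned to forms without the exon in both pools. In Map4, 3 of 4 hold it, and the other, Map4-206, ends before the repeat region, so skipping of the exon was not measured there. The share of the 3, 55.4% and 58.4%, is what Map4-206 leaves and is not comparable with that of Map2.

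The leading Mapt transcript by TPM was Mapt-205, with 390 codons, at 345 TPM in replicate 1 and 383 in replicate 2. It took 46.8% and 45.5% of the gene's TPM. Mapt-204, with 372 codons and a long 3′ untranslated region of 3903 nt, followed at 264 and 290.3 TPM, or 35.8% and 34.5%. Mapt-201, with 430 codons, stood at 96.1 and 125 TPM, or 13.0% and 14.8%. The order was the same in both pools. By estimated counts it was not the same as by TPM, since Mapt-204 held 67.9% and 66.9% of the gene's counts and Mapt-205 held 24.6% and 24.5%.

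Mapt-205 differs from every other Mapt transcript of the tables by 54 nt that no other transcript covers, or 3.54% of its length of 1527 nt, and its annotated 3′ end is incomplete. Those 54 nt are a coding exon at chr11:104307881-104307934, and transcripts that hold it took 48.5% of complete coding Mapt TPM in replicate 1 and 47.7% in replicate 2. The exon is shown because no other Mapt transcript covers it, in capitals between 15 coding nt on each side:
Mapt-205: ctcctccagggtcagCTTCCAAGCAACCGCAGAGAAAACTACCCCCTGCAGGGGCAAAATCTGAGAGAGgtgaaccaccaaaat
By estimated counts its share was 24.8% in each library. Whether reads across its junctions support that share was not tested, since the files hold no reads.

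Other Mapt coding segments were held by smaller shares. The 174 nt of the pair of amino-terminal exons, which lengthen the projection domain of tau, were in transcripts with 14.3% of complete coding TPM in replicate 1 and 16.1% in replicate 2. The large exons of 711 and 198 nt, known from the big tau of peripheral neurons, were in transcripts with 0.738% and 0.557%. Both pools thus gave the same order, with the short forms of tau far above big tau. Complete coding Mapt transcripts differed by no segment of 93 nt, the length of the repeat exon in Map2 and Map4. The number of repeats in tau was therefore not measured.

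Map2 has 24 transcripts in the tables, the most of the 10 genes, and 13 of them reached 1 TPM in both libraries. Map2-201, with 467 codons, led at 108 and 113 TPM, or 36.7% and 38.7% of the gene. This is the length of the short juvenile form, which lacks most of the projection domain. Map2-204, with 1828 codons, holds the 4083 coding nt that make high-molecular-weight MAP2 and stood at 45.1 TPM in replicate 1 and 35.8 in replicate 2. Among complete coding Map2 transcripts the long form took 24.2% and 19.2%, so the short forms took most of this complete coding RNA. Other Map2 transcripts were not sorted into long and short forms. The deposited intervals of Map2-204, 42.9 to 45.3 and 33.9 to 36.0 TPM, did not overlap between the libraries.

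3 other Map2 transcripts reached 5% of the gene in both libraries. Map2-218, a fragment of 546 nt without a complete reading frame, took 18.2% and 17.9% of the gene's TPM but 2.08% and 2.03% of its counts. Map2-212, a retained intron transcript, took 9.14% and 10.4% of the TPM. Map2-205, a further form of 467 codons, took 6.83% and 6.58%, and neither it nor Map2-201 has a base that no other Map2 transcript covers. An antisense gene, Gm10558, lies within Map2 and had 594 and 664 counts, 1.99% and 2.12% of Map2's own.

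In Map4 the leader was Map4-206, a transcript of 99 codons that ends before the repeat region, at 51.8 and 54.2 TPM. Its share was 44.6% in replicate 1 and 41.6% in replicate 2. Map4-204, with 933 codons, took 26.5% and 27.7%, and Map4-205, with 1124 codons, took 25.4% and 26.4%. No transcript holds both the coding segment of 1453 nt, found in Map4-204 and in 26.5% and 27.7% of complete coding TPM, and that of 1620 nt, found in Map4-201 and Map4-205 and in 28.9% and 30.7%. All 4 Map4 transcripts have a length in GENCODE M21 that differs from the deposited one, by up to 397 nt, so their coding structure may differ from that used for the counts.

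Map1a and Map1b encode large MAPs that are each cut into a heavy and a light chain, Map1b the early form of growing axons and Map1a that of mature neurons. Map1b, at chr13:99421446-99516540 on the minus strand, stood at 589 TPM in replicate 1 and 625 in replicate 2. It had the most counts of the 10 genes, 179263 and 200630, and a single annotated transcript of 2464 codons. Map1a, at chr2:121289600-121310832 on the plus strand, stood at 36.5 and 24.8 TPM, with 4945 and 3624 counts. Map1b was 19.8-fold above Map1a in mean TPM, 16.1-fold in replicate 1 and 25.2-fold in replicate 2, and 44.0-fold when both were set over their longest complete coding transcript. Aligned, the coding sequences of Map1a-202 and Map1b-201 were identical at 66.8% of 6379 nt.

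Map1a was the gene among the 10 led by a noncoding transcript. Map1a-204, of 411 nt with no reading frame, stood at 18.1 TPM in replicate 1 and 12.2 in replicate 2, or 49.5% and 49.2% of the gene, yet it held 2.95% and 2.87% of the gene's counts and no base of its own. The coding forms Map1a-201, of 3014 codons, and Map1a-202, of 2776 codons, stood at 8.50 and 6.96 TPM and at 8.49 and 4.66 TPM. All of these were lower in replicate 2. The 714 coding nt at the start of Map1a-201 were in 50.03% of complete coding TPM in replicate 1 and in 59.9% in replicate 2. Ppip5k1, a coding gene on the opposite strand whose end overlaps that of Map1a, had 889 and 952 counts, equal to 18.0% and 26.3% of those of Map1a. Whether counting used strand is not given in the sources used here, so reads of the shared stretch are uncertain.

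Map6 encodes the protein first known as STOP, which protects microtubules from cold, and lies at chr7:99267447-99337137 on the plus strand. It stood at 111 TPM in replicate 1 and 125 in replicate 2. Map6-204, with 568 codons, took 74.7% and 77.0% of it, and Map6-202, with 306 codons, took 19.7% and 17.7%. The full form, Map6-201 with 906 codons, was at 3.84 and 4.17 TPM. Accordingly the 609 nt of the first coding exon that Map6-202 lacks were in 79.9% and 82.0% of complete coding TPM, while the last 994 coding nt, which only Map6-201 holds, were in 3.53% and 3.40%.

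Dcx encodes doublecortin, the marker of migrating neuroblasts, and lies at chrX:143855842-143933311 on the minus strand. It stood at 205 TPM in replicate 1 and 219 in replicate 2. Dclk1, its relative with a doublecortin part followed by a protein kinase, lies at chr3:55242364-55539068 on the plus strand and stood at 125 and 129 TPM. The coding sequences of Dcx-201 and of Dclk1-203, the form of Dclk1 without the kinase exons, were identical at 71.4% of 1064 aligned nt. Their 6 coding exons run to nearly the same lengths and both end on 54 nt.

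The main Dcx transcripts encode proteins of nearly the same length and differ in their untranslated regions. Dcx-203, with 365 codons, stood at 91.8 and 102 TPM, or 44.8% and 46.5% of the gene. Dcx-201, with 366 codons and a 3′ untranslated region of 7709 nt, stood at 80.4 and 82.6 TPM, or 39.2% and 37.7%. By counts Dcx-201 led with 62.4% and 60.8%. Dcx-204, with 360 codons, took 6.88% and 6.68% of the TPM, and the retained intron transcript Dcx-206 took 5.58% and 5.88%.

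A pair of small coding segments separates these forms, both at exon borders on the minus strand. The first, 15 nt at chrX:143875755-143875769, was held by transcripts with 92.6% of complete coding TPM in replicate 1 and 92.8% in replicate 2. The second, 3 nt at chrX:143870607-143870609, was held by transcripts with 44.7% and 43.0%. They are shown as the only coding differences among complete Dcx transcripts, in capitals between 15 coding nt on each side:
Dcx-203: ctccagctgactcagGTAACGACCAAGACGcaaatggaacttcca
Dcx-201: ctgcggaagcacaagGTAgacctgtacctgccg
By estimated counts the first was held by 98.4% in replicate 1 and 98.5% in replicate 2, and the second by 65.7% and 64.1%. Transcripts with the first segment thus led in both pools on both scales. For the second, which form led depended on the scale, since counts, unlike TPM, are not corrected for transcript length. On both scales its share rests on how the model divides reads among these transcripts.

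Dclk1 has 3 transcripts, and each was above 5% of the gene in both libraries. Dclk1-201, with 756 codons that hold both the doublecortin part and the kinase, stood at 58.0 and 62.6 TPM, or 46.6% and 48.3%. Dclk1-203, with 363 codons and no kinase exons, stood at 51.6 and 52.5 TPM, or 41.4% and 40.5%. Dclk1-202, with 422 codons of the kinase part alone, stood at 14.9 and 14.4 TPM, or 11.99% and 11.1%. Grouped by what they encode, transcripts with the 940 coding nt of the doublecortin part took 88.0% and 88.9%, and those with the 938 nt of the kinase part took 58.6% and 59.5%. In both pools the doublecortin part was thus held by a larger share of Dclk1 RNA than the kinase.

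Stmn2 encodes SCG10, the stathmin of growth cones, and lies at chr3:8509360-8561606 on the plus strand. It stood at 977 TPM in replicate 1 and 989.8 in replicate 2, ranks 61 and 58 among nuclear coding genes. Stmn2-201, of 179 codons, took 96.9% and 96.3% of it. Stmn4, which encodes the related protein RB3, lies at chr14:66344296-66361680 on the plus strand and stood at 464 and 507 TPM. Stmn2 was 2.02-fold above Stmn4 in mean TPM. The coding sequences of Stmn2-201 and Stmn4-201 were identical at 71.4% of 525 aligned nt, and in both the last coding exons have 192 and 57 nt.

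Stmn4 was split over 3 forms. Stmn4-201, of 189 codons, stood at 299 and 331 TPM, or 64.4% and 65.2% of the gene. Stmn4-203, of 216 codons, stood at 114 and 128 TPM, or 24.5% and 25.3%, and Stmn4-202, of 176 codons, at 44.0 and 41.1 TPM, or 9.48% and 8.10%. They differ by an inserted exon of 81 nt at chr14:66356269-66356349 and by the end of the reading frame, which has either 57 nt at chr14:66361075-66361131 or 18 nt at chr14:66358679-66358696. These alternative ends are shown in capitals after the last 15 coding nt they share:
Stmn4-201: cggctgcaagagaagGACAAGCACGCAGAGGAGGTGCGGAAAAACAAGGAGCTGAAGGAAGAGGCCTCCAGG
Stmn4-202: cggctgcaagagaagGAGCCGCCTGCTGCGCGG
The longer end was in transcripts with 90.4% of complete coding TPM in replicate 1 and 91.8% in replicate 2, and the shorter in 9.64% and 8.22%. The inserted 81 nt were in 24.9% and 25.6%.

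**Figure D2:**
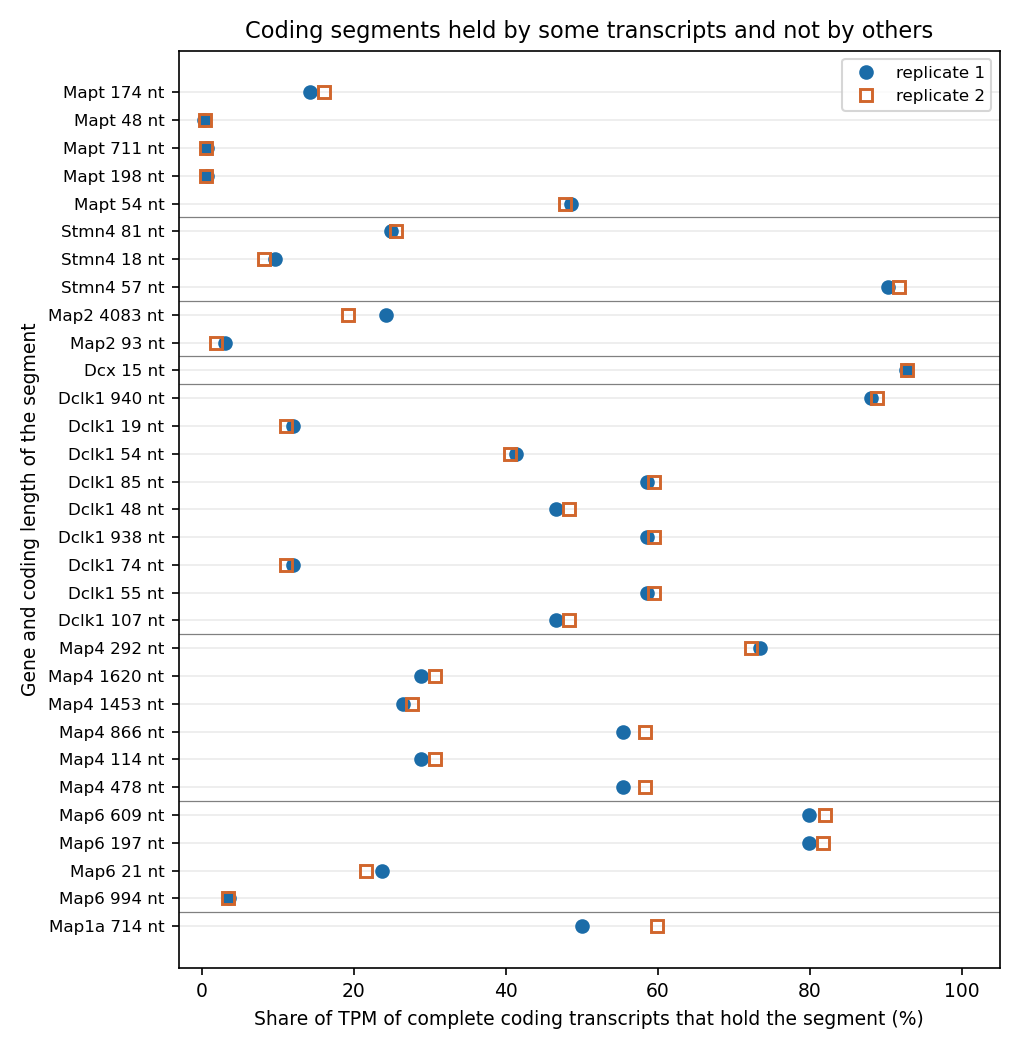
Share of the TPM of complete coding transcripts, in percent, that is held by transcripts with each coding segment of 15 nt or more, by gene, for replicate 1 (filled circles) and replicate 2 (open squares). Segments of 1 gene that only the same transcripts hold have the same share, and the widest gap between the libraries is that of the Map1a segment of 714 nt.

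Across the 72 transcripts, 48 reached 1 TPM in both libraries and 5 were at 0 in both. The leading transcript was the same in both pools for 10 of 10 genes, and it held over 50% of the gene in both for 4, namely Map1b, Map6, Stmn2 and Stmn4. For the 28 transcripts at 5% or more of their gene in both libraries, the share moved by at most 4.82 percentage points between the pools, the value of Map1a-201, with a median of 1.26. When shares were taken of estimated counts, which favour long transcripts, 6 of 10 genes had the leader found by TPM in both libraries. The leaders of Mapt, Dcx and Map1a changed in both, to Mapt-204, Dcx-201 and Map1a-201, and that of Map4 changed in replicate 2 only, to Map4-205. Transcripts of noncoding type held 53.3% ± 0.266 of Map1a TPM and 14.6% ± 0.381 of Map2 TPM, and 0% of Map1b, Map4 and Dclk1, which have none in the tables.

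**Figure D3:**
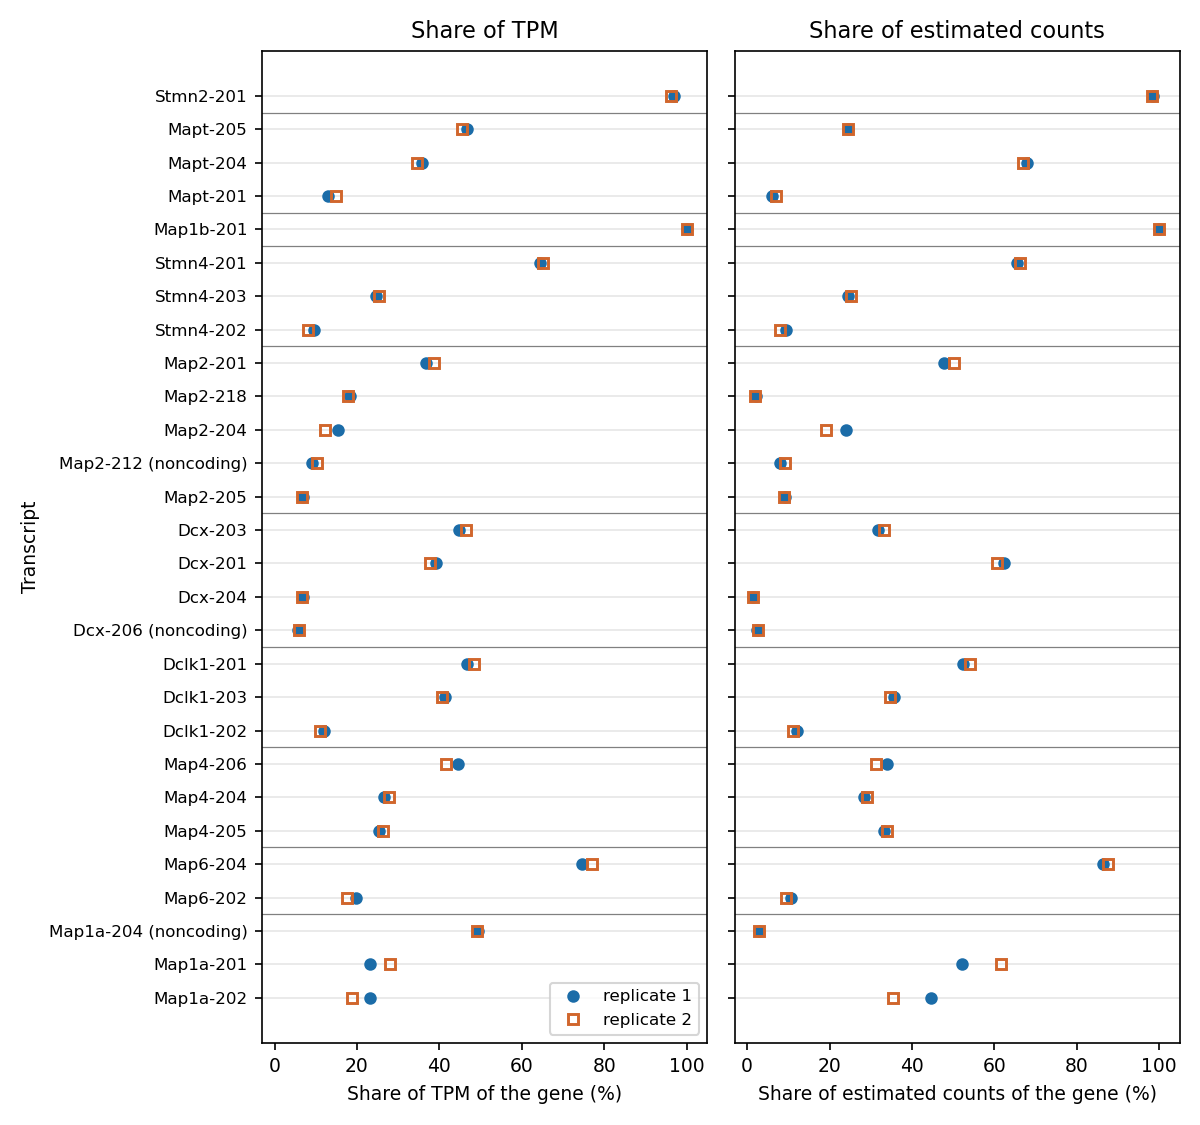
Share of its gene held by each of the 28 transcripts at 5% or more in both libraries, by TPM on the left and by estimated counts on the right, in percent, with replicate 1 as filled circles and replicate 2 as open squares. The pools nearly coincide on each scale, while Mapt-204, Dcx-201 and Map1a-201 lead their genes in both libraries only on the right.

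The gap between scales bears on the gene levels, since the deposited gene TPM divides reads by a length weighted over transcripts. With the same reads set over the longest complete coding transcript, a choice made after seeing the data, Mapt came to 411 ± 31.7 TPM, 1.92-fold below its deposited level, and Map1a to 13.8 ± 3.53 TPM, 2.22-fold below. Map2 came to 187 ± 0.850 TPM, 1.57-fold below, and Dcx to 132 ± 5.03 TPM. Map1b, with its single transcript, kept 607 ± 24.9 TPM and Stmn2 came to 965 ± 5.69 TPM. Under this length the order began with Stmn2, Map1b, Stmn4 and Mapt, so the place of Mapt above Map1b and Stmn4 depends on the share given to the short Mapt transcripts.

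**Figure D4:**
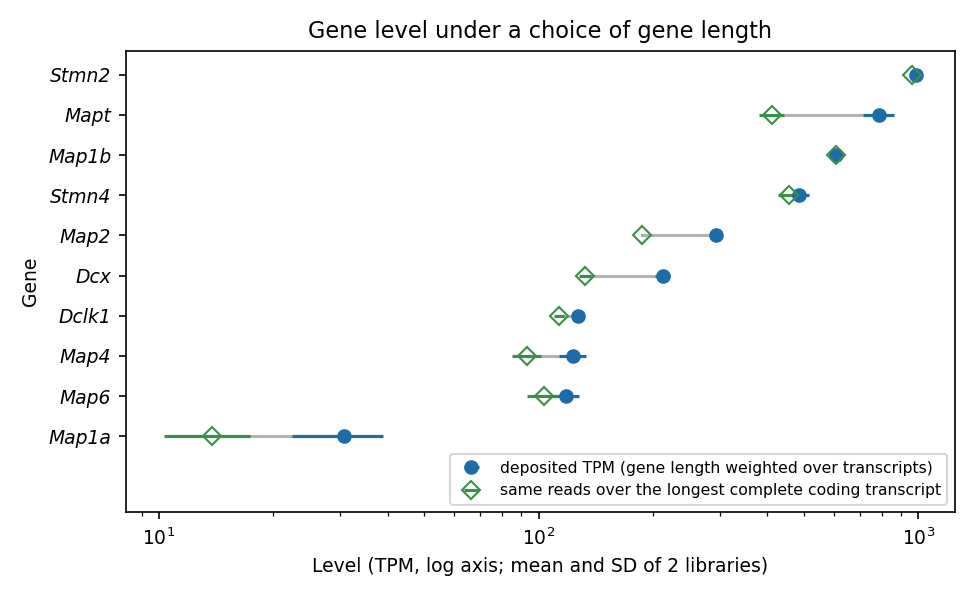
Mean and SD over 2 libraries of the gene level in TPM, on a log axis, as deposited (circles) and with the same reads over the longest complete coding transcript (diamonds). Mapt moves from the second place to the fourth, and Map1a stays the lowest under both lengths.

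On counts scaled by the trimmed mean of M-values (TMM), 0 of 10 genes differed by more than 1.5-fold between the libraries, against 6.46% of the 17048 genes whose mean count was at least 20. Replicate 2 was higher for 7 genes and lower for 3 (with spike-in totals higher for 3 and lower for 7). The median log2 ratio of replicate 2 over replicate 1 was 0.05 for the 10 genes and 0.00 for all genes compared. The exact (Clopper-Pearson) 95% intervals, which cover counting error only, left out no change for 10 of 10 genes, against 38.0% of all genes, which have far lower counts. With 1 library on each side there is no p-value.

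Map1a had the widest ratio, with 4945 counts in replicate 1 and 3624 in replicate 2. Its log2 ratio was -0.56, with an interval from -0.62 to -0.50, a 1.47-fold lower level in replicate 2. At a smaller limit of 0.32 on the log2 scale it was the single gene of the 10 past the limit, against 16.7% of all genes compared. Map6, with the highest ratio, had a log2 ratio of 0.16, and Map2, next to Map1a at the low end, one of -0.04. Scaled by spike-in totals, the median of all genes moved to -0.11, Map1a to -0.67, which passed 1.5-fold (as did 7.46% of all genes compared), and Dclk1, Dcx, Map1b and Stmn4 turned from higher to lower. Spike-in scaling moves every gene by the same amount, so values relative to that median repeat those of TMM and add no further result. They were -0.56 for Map1a and from -0.04 to 0.16 for the other 9 genes. The neuron markers had a median log2 ratio of 0.05 and those of progenitors and radial glia one of -0.23, and their part in these ratios was not tested.

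**Figure D5:**
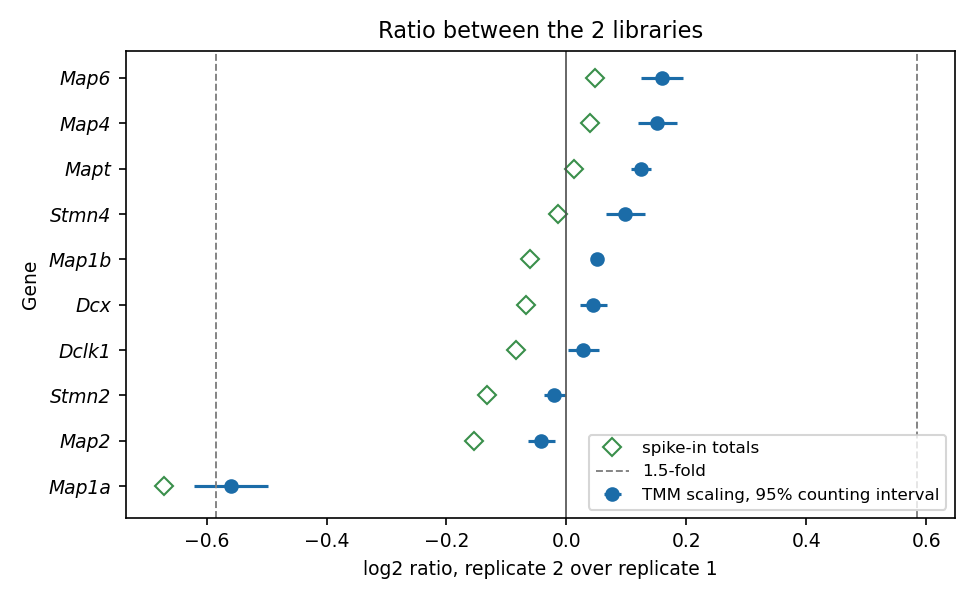
Log2 ratio of replicate 2 over replicate 1 for each gene, with TMM scaling and its 95% counting interval (circles) and with spike-in totals (diamonds). Dashed lines mark 1.5-fold, which Map1a passes only with spike-in totals, and 9 genes lie within 0.2 of 0 on both scalings.

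Other genes of the microtubule pathway were described through 7 lists chosen by hand, which need not cover the whole pathway. Of 97 genes in these lists 93 were detected, against 63.1% of nuclear protein-coding genes. The median level of the 97 was 36.5 ± 1.43 TPM. Here and for each list, the median was taken over the mean TPM of the genes. The value after the ± of a median is the SD of the medians of both libraries. Other structural MAPs had 19 of 20 detected and a median of 60.3 ± 6.14 TPM. Their highest were Dpysl2, Dpysl3 and Crmp1, collapsin response mediators that bind tubulin in growing axons, at 989.6 ± 1.97, 903 ± 58.5 and 687 ± 101 TPM. All 5 other doublecortin and stathmin genes were detected, led by Stmn1, the general stathmin, at 4778 ± 139.6 TPM and Stmn3 at 1260.0 ± 17.2 TPM, both above Stmn2, with Dclk2 at 73.1 ± 4.26 TPM.

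Of proteins at the plus and minus ends of microtubules, 20 of 20 were detected with a median of 38.1 ± 1.04 TPM. The end-binding genes Mapre1, Mapre2 and Mapre3 led at 278 ± 2.33, 201 ± 14.9 and 108 ± 10.4 TPM. Each of 7 severing enzymes was detected, and their median was 23.4 ± 1.29 TPM, with Katnal1 of the katanin family at 31.3 ± 0.552 TPM and spastin, Spast, at 23.9 ± 0.368 TPM.

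Tubulin-modifying enzymes had 18 of 21 detected and a median of 18.2 ± 3.37 TPM. Atat1, the tubulin acetyltransferase, stood at 307 ± 46.3 TPM, Svbp, the partner of the vasohibin detyrosinases, at 182 ± 4.29 TPM and Ttll1, of the polyglutamylase complex, at 94.1 ± 8.78 TPM. The genes not detected were Agbl2, Ttll6 and Agbl1, and Map7d3 among the structural MAPs. All 18 kinases and phosphatases known to act on MAPs were detected, with a median of 55.0 ± 2.38 TPM. The highest were the phosphatase subunit Ppp2r2b at 189 ± 18.7 TPM, the tau kinase Gsk3b at 119 ± 1.54 TPM and the phosphatase catalytic subunit Ppp2ca at 103 ± 3.03 TPM. All 6 genes listed for dynein and its partners in migration were detected, with a median of 55.3 ± 0.339 TPM. They were led by Dctn1 at 123 ± 7.79, Ndel1 at 83.8 ± 1.87 and Dync1h1, the dynein heavy chain, at 73.1 ± 3.04 TPM. Among genes of these lists with a mean count of at least 20, Map7d3 alone passed 1.5-fold between the libraries, with 29 counts in replicate 1, 18 in replicate 2 and a log2 ratio of -0.78 whose counting interval, -1.73 to 0.10, holds 0. At a mean count of 100 or more 0 passed, against 2.02% of all genes at that limit.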

How the data were processed

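Total RNA of 2 pools of embryonic day 15.5 hindbrain was quantified by the authors per gene and per transcript on mm10 with GENCODE M4, 1 library at a time, per the accompanying notes. Which aligner and quantifier made the values, and with which strand setting, is not given in the sources used here. Deposited estimated counts are not normalized and need not be whole. The deposited TPM is scaled to a fixed sum over every feature, spike-ins included, and the deposited FPKM by effective length and assigned reads. The deposited interval bounds of TPM, like the posterior counts, are a signal centred on the posterior mean. The deposited percent of a gene's TPM per transcript is the authors' own, and shares were recomputed from transcript TPM.

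Symbols, positions, coding structure and sequences were read from GENCODE M21, whose assembly, GRCm38, is that of mm10. Of gene identifiers 42462 matched and 884 did not, the latter with 0.200% of gene counts. All 72 transcripts matched by identifier, 66 with the same length, and 1 of those assigned to Map6 is a gene of its own, Gm45591, in M21. Spike-ins, 2.86% and 3.09% of counts, and features with numeric identifiers were kept out of library sizes. A coding segment is a stretch that some complete coding transcripts of a gene hold and others skip. Library ratios used edgeR 4.0.16 under R 4.3.3 with TMM, a prior count of 0.5 and estimated counts rounded to whole numbers. Their code was run on simulated counts with sampling error alone, which spread less than these pools do. That run does not test calls at 1.5-fold. A mean count, before rounding, of at least 20 was required. That filter was first applied after rounding, and was changed after values had been seen to match the earlier processing of these data, with 0 of the 10 genes past 1.5-fold either way.

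The genes and lists were chosen with earlier results of these data known. Named were the 10 genes, each transcript at 5% or more of its gene in both libraries, the 3 highest genes of each pathway list and any pathway gene past 1.5-fold at a mean count of 100 or more. Other genes and transcripts named, such as markers, overlapping genes and the genes not detected, were chosen after their values were seen. Some items that these rules take are not reported here. Alternatives covered posterior TPM, TPM over nuclear coding genes, count shares, detection limits of 0.5 and 2 TPM and 1 FPKM, library totals, size factors from DESeq2 1.42.0, spike-in totals, count minimums of 100 or none, TPM ratios with pseudocounts of 1 and 0.1, a smaller fold and each library alone.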

Additional observations from a re-analysis of the deposited data

How the results depend on the processing

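The median level of the 10 genes, 252 TPM over both libraries, was 248 TPM with posterior means, 321 TPM when scaled over nuclear coding genes alone and 159.5 TPM with the longest complete coding length, an alternative chosen after seeing the data. It ranged from 249.6 to 255 TPM with 1 library left out. The count of genes past 1.5-fold between the libraries went from 0 to 1, Map1a, with spike-in totals, under which 7.46% of all genes pass, and with the smaller fold limit, and stayed 0 with DESeq2 size factors, library totals, count minimums of 100 or none and TPM ratios. Stmn2 turned from lower to higher, with a log2 ratio of 0.02, in the TPM ratios. The median noncoding share, 2.69% of TPM, was 0.744% of estimated counts. Coding segments in 50% or more of complete coding TPM in both libraries numbered 15 of 37 by TPM and 18 by counts. Detection of the 10 genes was the same under every alternative run, and the 93 pathway genes became 94 at 0.5 TPM and 92 at 2 TPM.

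No paired analysis was possible because there is 1 group. Transcript shares come from a model that divides shared reads, so forms with few bases of their own, such as Mapt-201, Map2-201, Map1a-204 and Dcx-203, rest most on that model. Posterior intervals cover that division and counting, not the spread between pools. With 2 pools, an SD has 1 degree of freedom.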
